A study of Mus musculus with 26 samples.

Results

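Neurofilament transcripts were followed in blastocyst-derived mouse ES cells with and without ZFP57. The 4 subunit genes *Nefl*, *Nefm*, *Nefh* and *Ina* were taken by symbol from the deposited expression table, together with *A230070E04Rik*, a non-coding gene antisense to *Nefm*. These are 5 of its 24409 genes, and all 5 were expressed highly enough to be tested. They were picked with the WT and KO values of *Nefm* known, so their own differences between the genotypes are given here as a description and carry no p-value.

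All lines were male and on the C57BL/6J strain, and were kept in 2i/LIF medium, with passage number matched between genotypes. ZFP57 KO lines were zygotic mutants that lack, on both alleles, the exons for the KRAB domain and the zinc fingers. WT controls carried the intact gene. RNA-seq of total RNA depleted of ribosomal RNA covered 3 WT and 2 KO samples, and ZFP57 ChIP-seq 3 WT and 2 KO samples. The deposited peaks form a C57BL/6J list and a smaller hybrid list (C57BL/6J X 129aa), both without scores. *Zfp57* itself lay at 75.94, 72.34 and 70.55 FPKM in WT and at 19.0 and 21.62 FPKM in KO, and the table does not separate the deleted exons.

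Neurofilaments are the intermediate filaments of neurons, where they fill axons and set axon calibre. The light (*Nefl*), medium (*Nefm*) and heavy (*Nefh*) subunits and alpha-internexin (*Ina*) copolymerise through a shared rod domain, and the medium and heavy subunits carry long tails that are phosphorylated in mature axons. ZFP57 is a KRAB zinc finger protein that binds the hexanucleotide TGCCGC when its CpG is methylated and recruits the co-repressor KAP1. It is best known for keeping methylation at imprinting control regions, and the neurofilament genes are not imprinted.

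A single ZFP57 peak marked the *Nefm* locus. It spanned 348 bp, from 68121507 to 68121854 on chromosome 14 (GRCm38, mm10), and lay wholly inside intron 2 of *Nefm*, 122 bp from exon 3 and 966 bp from exon 2. The central 300 bases are shown because they hold every copy of the hexanucleotide in the peak. They are read from GRCm38 at chr14:68121531-68121830 on the minus strand, the strand from which *Nefm* is transcribed, with TGCCGC in capitals.
*Nefm* intron 2 peak: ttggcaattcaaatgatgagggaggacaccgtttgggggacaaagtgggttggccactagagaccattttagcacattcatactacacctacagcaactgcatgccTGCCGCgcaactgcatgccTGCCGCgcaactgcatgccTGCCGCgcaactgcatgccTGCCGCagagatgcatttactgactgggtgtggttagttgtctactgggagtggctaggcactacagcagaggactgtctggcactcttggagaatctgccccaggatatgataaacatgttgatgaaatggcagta
Repeat unit: gcaactgcatgccTGCCGC

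The peak held 4 copies of TGCCGC, all on the strand of *Nefm*, and each closed an identical unit of 19 bp. These units followed each other without a gap and formed a tandem array of 76 bp, at 68121662 to 68121737. The copies lay 41, 22, 3 and 16 bp from the centre of the peak. Of the 8 CpGs in the peak, 7 lay in the array.

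This arrangement was uncommon among the 1423 peaks of the C57BL/6J list. TGCCGC, searched on both strands, occurred at least 4 times in 35 peaks (2.46%) and at least once in 1309 (92%). In 9 peaks, that of *Nefm* among them, 4 copies on the same strand were evenly spaced. The unit of 19 bp itself had no exact copy on the 21 chromosomes searched other than the 4 in this peak. With 50.6% G+C the peak was close to the median of all peaks (49.8%), whereas its 8 CpGs compare with a median of 11. Soft-masked repeat sequence made up 14.4% of it, and 65.6% of all peaks were masked over at least 50% of their length.

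**Figure D1:**
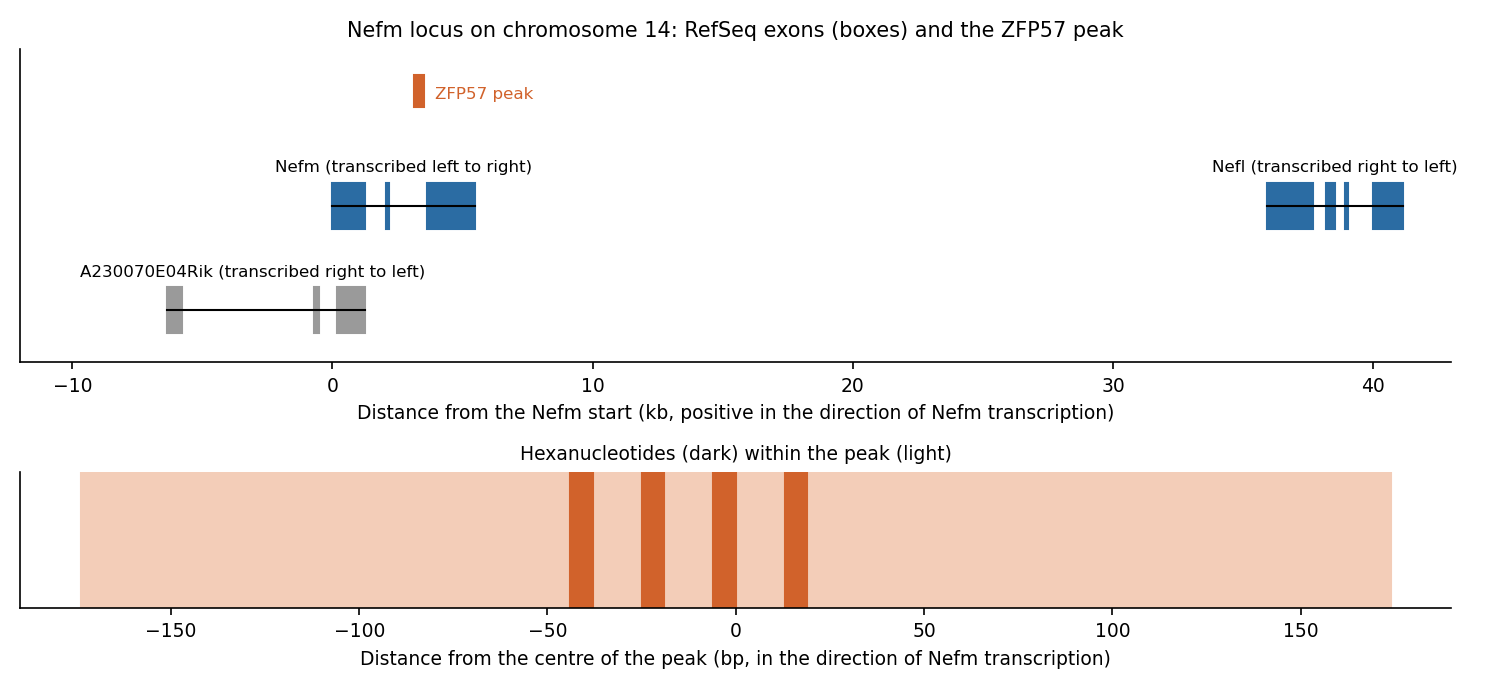
The upper panel maps the RefSeq exons of *Nefm*, *Nefl* and *A230070E04Rik* and the ZFP57 peak by distance (kb) from the *Nefm* start. The lower panel marks the 4 copies of the hexanucleotide by distance (bp) from the centre of the peak, all between 41 bp before and 16 bp after it.

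The peak lay 3150 bp inside *Nefm* from its start at 68125004. The hybrid list holds this peak at the same coordinates, and also holds 52.2% of the 1423 C57BL/6J peaks. With 743 peaks in all, the hybrid list appears to be a subset of the C57BL/6J list. The ZFP57 ChIP-seq samples were from C57BL/6J cells only, so presence in the hybrid list is not a second, independent detection. *A230070E04Rik* (68123752 to 68131371, plus strand) started 1898 bp from the peak, within the bounds of *Nefm* exon 1. *Nefl* (68083863 to 68089095, plus strand) converges with *Nefm* across a gap of 30449 bp, and its 3′ end was 32.4 kb from the peak, beyond the window of 20 kb used for nearby genes. The next peak on chromosome 14 was 1.5 Mb away, at 66617043 to 66617286.

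*Nefh* and *Ina* lie on other chromosomes and had no peak within 100 kb. For *Nefh*, at 4938754 to 4948064 on chromosome 11, the nearest peak was 415 kb away in the C57BL/6J list and 889 kb away in the hybrid list. For *Ina*, at 47014681 to 47025327 on chromosome 19, it was 168 kb away and absent from the hybrid list, in which the nearest peak lay 6425603 bp from the gene. Thus 2 of the 5 genes, *Nefm* and *A230070E04Rik*, had a peak within 20 kb, and they share it. The hybrid list gave the same 2 genes, but is no separate evidence for the peak.

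Gene expression was deposited as FPKM, fragments scaled to transcript length and library depth, so that levels can be set side by side between genes. Values of short RNAs fell on multiples of a fixed step, from which 1 fragment on 1 kb is worth 0.01698 to 0.01965 FPKM, which puts the depth at 50.9 to 58.9 fragments per kilobase for each unit of FPKM. Log2 fold changes were estimated with limma on log2(FPKM + 0.1) over 14612 genes averaging 0.1 FPKM or more, and understate the change of low genes. A gene was called when its adjusted p was under 0.05 over all these genes. Such calls took in 41.1% of all tested genes, 18.8% higher and 22.3% lower in KO, and 8.02% when the log2 fold change also had to reach 1 in either direction, which 8.96% of tested genes did whether called or not. In 63.4% the KO libraries did not overlap the WT libraries, 30.3% lying higher and 33.1% lower. All 5 members were called and did not overlap, 3 higher and 2 lower, each with a log2 fold change above 1 in size. Nothing is read from this count, since the members were chosen on this contrast. In bulk RNA a change in the number of expressing cells and a change in RNA per cell cannot be told apart.

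*Nefm*, the medium subunit, had 1.76, 1.17 and 0.83 FPKM in WT, or roughly 314, 223 and 136 fragments on its transcript of 3230 bases. The KO libraries stood at 12.87 and 15.63 FPKM, roughly 2175 and 2786 fragments. Both KO libraries were therefore above every WT library by a wide margin, with means of 1.25 ± 0.471 (SD, n = 3) and 14.2 ± 1.95 FPKM (SD, n = 2). The ratio of the means was 11.4, and the log2 fold change 3.46 (SE 0.28), with 3.32 in KO 1 and 3.6 in KO 2.

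*A230070E04Rik*, a long non-coding RNA gene of unknown role, moved in the same direction as *Nefm*. Its levels were 0.31, 0.18 and 0.14 FPKM in WT, resting on roughly 32, 20 and 13 fragments, and 2.1 and 1.93 FPKM in KO, resting on roughly 203 and 197. The groups did not overlap, and the log2 fold change was 2.81 (SE 0.25), a size that depends on the pseudocount, being 1.32 with 1 and 3.28 with 0.01. The level remained low in comparison with that of *Nefm*, at 0.154 to 0.176 of it in WT and at 0.163 and 0.123 in KO, so that this ratio overlapped between the genotypes while both genes differed.

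*Nefm* and its antisense neighbour share sequence. The spans overlap by 1253 bp and the exons by 1077 bp, which is 58.2% of the *A230070E04Rik* transcript and 33.3% of that of *Nefm*. Whether fragments were counted by strand is not given in the sources used here, and without strand the reads of the pair cannot be told apart over this stretch.

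*Nefl*, the light subunit on which filament assembly depends, was the most abundant of the 5 in every library. It was measured at 12.56, 10.86 and 9.13 FPKM in WT and at 36.3 and 28.09 FPKM in KO. The lowest KO value exceeded the highest WT value more than the WT libraries differed among themselves. The log2 fold change was 1.56 (SE 0.16), with means of 10.9 ± 1.72 (SD, n = 3) and 32.2 ± 5.81 FPKM (SD, n = 2), a ratio of 2.97.

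*Nefh*, the heavy subunit with the longest tail, went the other way. WT libraries were at 6.75, 5.9 and 6.51 FPKM and KO libraries at 1.2 and 1.11 FPKM. Relative to its mean it varied least of the 5 genes within each genotype, with means of 6.39 ± 0.438 (SD, n = 3) and 1.16 ± 0.0636 FPKM (SD, n = 2). It fell by 2.37 on the log2 scale (SE 0.09), WT being 5.53 times KO.

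*Nefh* lies on chromosome 11, whose 1224 tested genes had a median log2 fold change of -0.471 and of which 67.4% were called lower in KO. These 825 genes were part of the 3253 called lower among all tested genes, so this chromosome raises the overall share of 22.3%. With the median of each chromosome subtracted in every library, the log2 fold change of *Nefh* was -1.89, so most of its difference remained after this. The same step left *Nefm* at 3.48 and *Nefl* at 1.58, since the median of chromosome 14 was -0.0146.

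*Ina*, encoding alpha-internexin, which precedes the other subunits in developing neurons, was also lower in KO. It was at 2.53, 3.07 and 3.37 FPKM in WT and at 1.74 and 0.84 FPKM in KO, and the groups did not overlap. The KO libraries disagreed in size, lying 0.74 and 1.71 below the WT mean on the log2 scale, and the log2 fold change was -1.22 (SE 0.28).

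**Figure D2:**
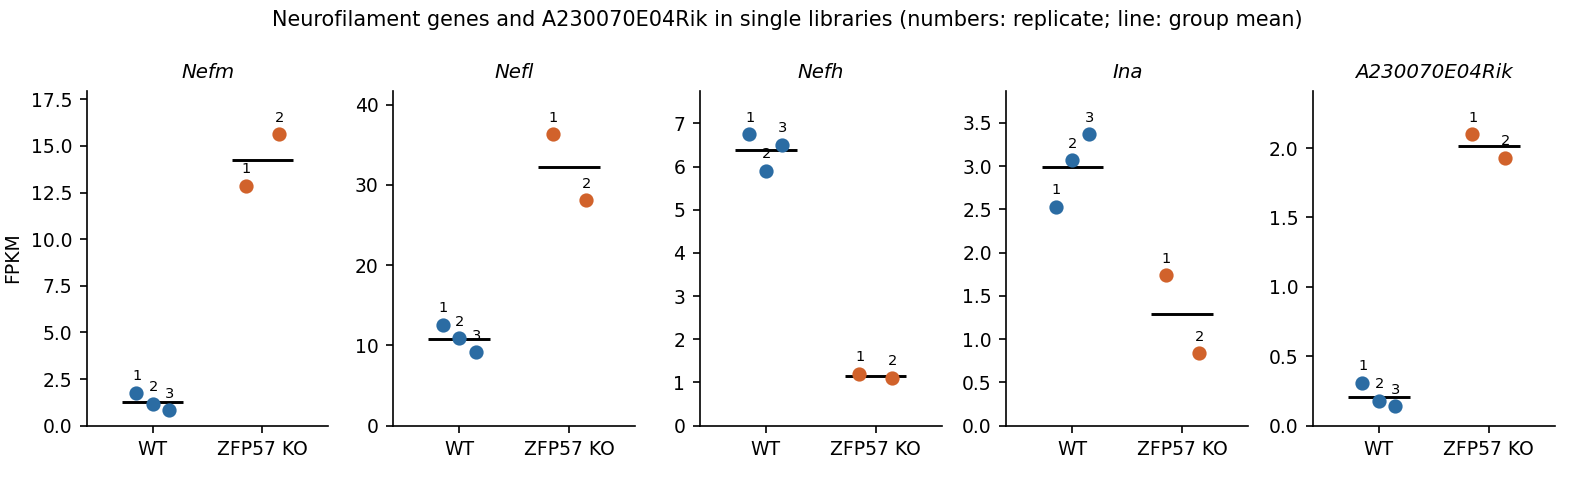
FPKM of each member in single libraries (points, numbered by replicate) with the mean of the group as a line and axes starting at 0. *Nefm*, *Nefl* and *A230070E04Rik* were above the WT range in both KO libraries, *Nefh* and *Ina* below it.

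The order of the transcripts changed with the genotype. In WT it ran *Nefl*, *Nefh*, *Ina*, *Nefm* and *A230070E04Rik*, and no neighbours in this order overlapped in their libraries. In KO it ran *Nefl*, *Nefm*, *A230070E04Rik*, *Ina* and *Nefh*, with the libraries of *Ina* (0.84 and 1.74 FPKM) and *Nefh* (1.11 and 1.2 FPKM) overlapping, so that these last genes did not differ beyond their spread.

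The makeup of the subunit transcripts shifted accordingly. Summed over *Nefl*, *Nefm*, *Nefh* and *Ina*, the level was 21.5 ± 1.94 FPKM in WT (SD, n = 3) and 48.9 ± 4.53 in KO (SD, n = 2). *Nefm* made up 4.18 to 7.46% of this sum in WT and 24.7 and 34.2% in KO. *Nefh* went from 28.1 to 32.8% in WT to 2.3 and 2.43% in KO.
*Ina* supplied 10.7 to 17.0% in WT and 3.34 and 1.84% in KO, whereas *Nefl* remained the largest part throughout, with 46.0 to 53.2% and 69.7 and 61.5%. Expressed against *Nefm*, *Nefl* was at 7.14 to 11 times its level in WT and at 2.82 and 1.8 times in KO. *Nefh* was at 3.84 to 7.84 times the level of *Nefm* in WT and at 0.0932 and 0.071 times in KO. The transcript of the medium subunit was thus above that of the heavy subunit in both KO libraries and below it in every WT library.

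**Figure D3:**
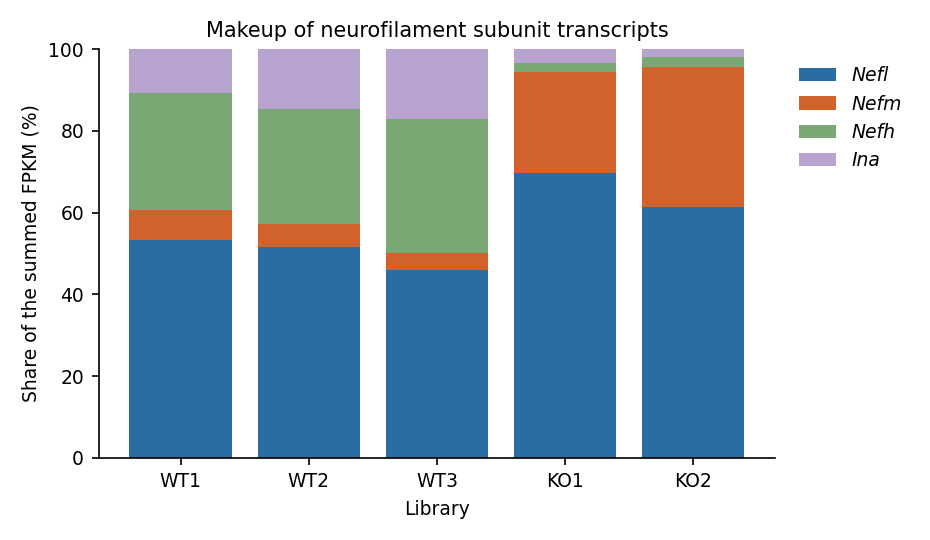
Share (%) of each subunit transcript in the summed FPKM of the 4 subunit genes, as a stacked bar for each library. *Nefh* and *Ina* together take up a large part of each WT bar and a thin part of each KO bar, where *Nefm* is at 24.7 and 34.2%.

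Of 10664 genes averaging 1 FPKM or more, *Nefm* ranked 11th from the top by log2 fold change, *Nefl* 115th, *Nefh* 31st from the bottom and *Ina* 194th from the bottom. Directly above *Nefm* stood *Mir679* (3.46, SE 0.60) and directly below it *Mir432* (3.36, SE 0.24), both microRNA genes.

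The genes whose profile over the 5 libraries was nearest to that of *Nefm*, by Euclidean distance of log2(FPKM + 0.1) centred on each gene's mean, were *Mir432* (0.31), *Etv4* (0.60), *Fst* (0.64), *Mir337* (0.67) and *Mirg* (0.68). *Mir432*, *Mir337* and *Mirg* lie together on chromosome 12 in the imprinted domain of *Meg3*. *Etv4*, an ETS transcription factor gene, was at 1.02, 1.1 and 0.61 FPKM in WT and at 7.94 and 8.97 in KO, and *Fst*, encoding the activin antagonist follistatin, at 0.82, 0.86 and 0.58 and at 6.11 and 8.2. The distance of *A230070E04Rik* was 0.79, with 7 of the 10660 other genes nearer, and that of *Nefl* 2.16, with 98 nearer. Only 5 libraries in 2 genotypes enter this measure.

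Whether the change at *Nefm* extended to other genes of the region was examined over a window of 1 Mb to either side. Beside *Nefl* and *A230070E04Rik*, both given above as higher in KO, it held 12 other genes of the table, and 7 of them were at or close to 0 in all libraries, among them *Adam7*, *Adam28* and *Ebf2*. Of the 12, 5 were tested, and none of these was called by limma, and none had an unadjusted p under 0.05, beside 41.1% called among all tested genes. So few genes do not show that the change ended at the members. *Dock5*, the nearest of these 5 at 186 kb, was at 15.19, 15.44 and 15.06 FPKM in WT and at 16.71 and 15.56 in KO, a log2 fold change of 0.08 (SE 0.05).
*Cdca2*, a cell division gene, differed by -0.04 (SE 0.04) and *Kctd9* by -0.09 (SE 0.07) on the log2 scale. *Gnrh1* (-0.04, SE 0.22) and *Mir6539* (-0.16, SE 0.17), which lies inside *Dock5*, had larger errors. Leaving out KO 1 gave 1 call, *Mir6539* (log2 fold change -0.46, limma's adjusted p = 0.043).

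With a window of 2 Mb, 22 other genes were tested and 5 called, beside 41.1% of all tested genes. *Trim35* (log2 fold change 0.45) and *Dpysl2* (0.43), which encodes a collapsin response mediator of axon growth, were higher in KO. *Ephx2* (-0.51), *Ptk2b* (-0.60) and *Bnip3l* (-0.28) were lower, and the nearest of the 5, *Bnip3l*, was 1110 kb from *Nefm*.

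**Figure D4:**
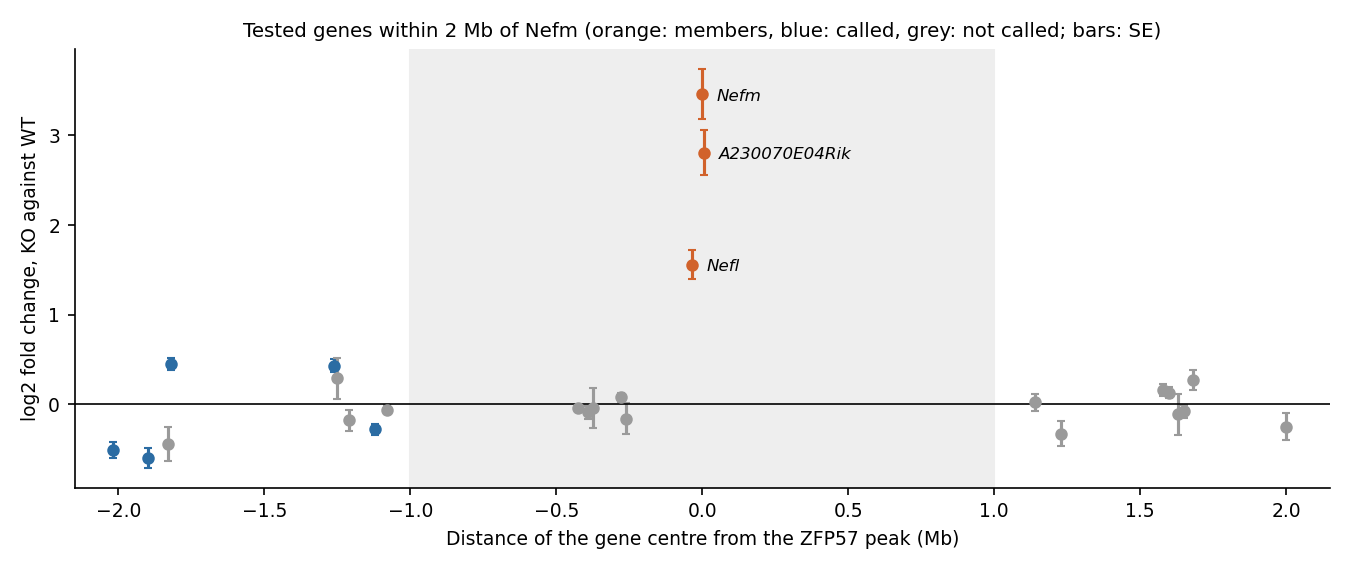
Log2 fold change (KO against WT, bars: SE) of tested genes against the distance (Mb) of the gene centre from the ZFP57 peak, with 1 Mb to either side shaded. The members *Nefm*, *A230070E04Rik* and *Nefl* stand at 3.46, 2.81 and 1.56, and the other genes in the shaded part between -0.16 and 0.08.

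The other 8 peaks with 4 evenly spaced hexanucleotides on the same strand were looked at in the same way. Within 20 kb of them lay 8 genes, and 2 of these peaks had none. Of the 8 genes, 2 were called, both lower, *Arhgap10* (log2 fold change -0.92) and *Stt3b* (-0.30), each overlapping its peak, and 22.3% of all tested genes were called lower. *Pard3*, a cell polarity gene, was at 4.96 ± 0.206 (SD, n = 3) and 5.67 ± 0.141 FPKM (SD, n = 2), and was not called (0.19, SE 0.06). *Habp4* stood at 0.00 (SE 0.16) and also overlapped its peak.

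A chosen list of 16 other intermediate filament genes, which does not hold the whole family, was read in the same way. Of these, 13 were tested, 4 were higher in KO, 3 lower and 6 not called, with a median log2 fold change of 0.16 against -0.01 for all tested genes, of which 41.1% were called. *Krt19*, a keratin gene on chromosome 11, was not called (0.55), but was called higher with chromosome medians subtracted (1.03, limma's adjusted p = 0.021). Those that rose were *Krt8* of simple epithelia (1.5, limma's adjusted p = 0.00087), *Vim*, the vimentin of mesenchymal and many proliferating cells (0.78, 0.011), and the nuclear lamins *Lmna* (0.71, 0.0092) and *Lmnb1* (0.16, 0.011).
Those that fell were desmin *Des* (-1.24, 0.0083), nestin *Nes* (-1.0, 0.0017) and peripherin *Prph* (-0.67, 0.039), a partner of neurofilaments in peripheral neurons. *Vim* was the most abundant outside the nucleus, at 41.63, 47.54 and 41.7 FPKM in WT and at 91.43 and 61.56 in KO. *Krt18*, the partner of *Krt8*, was at 0.89, 0.65 and 0.7 FPKM and at 0.51 and 0.72 and was not called (-0.25, 0.36). *Synm*, encoding synemin, was not called either (-0.50, 0.083).

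Among 20 genes that link, modify, move or degrade neurofilaments, 19 were tested, 5 were higher, 2 lower and 12 not called, with a median of 0.04. The called share was near the 41.1% of all tested genes. The higher ones were the cytolinkers *Plec* (0.94, limma's adjusted p = 0.0025) and *Dst* (0.33, 0.0015), the ubiquitin ligase *Trim2*, which acts on the light subunit (0.84, 0.003), the Cdk5 activator *Cdk5r2* (0.75, 0.02) and the kinase *Gsk3b* (0.31, 0.0031). The phosphatase subunit *Ppp2ca* (-0.43, 0.0041) and the motor *Kif5c* (-0.66, 0.013) were lower. *Ppp2ca* lies on chromosome 11, and with chromosome medians subtracted it was no longer called by limma (0.05, adjusted p = 0.58).

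Of 20 neuron markers 16 were tested, and 2 were higher, 1 lower and 13 not called, with a median of 0.04. Over all tested genes 18.8% were called higher and 22.3% lower. The microtubule regulator *Stmn3* (1.68, limma's adjusted p = 0.0021) and the adhesion molecule *Ncam1* (0.71, 0.0085) were higher, and the RNA-binding protein gene *Elavl3* was lower (-2.5, 0.00044). *Dcx*, a defining marker of migrating neurons, was at 0 FPKM in all libraries, and *Rbfox3* and *Snap25* were at most at 0.09.
The neuronal tubulin *Tubb3* was at 10.83, 13.06 and 11.34 FPKM in WT and at 11.57 and 7.52 in KO, and *Stmn2* at 38.76, 34.46 and 34.53 and at 43.49 and 34.99. The summed level of the list was 141.0 to 150.0 FPKM in WT and 157.0 and 127.0 in KO. The KO libraries disagreed here. Without KO 1 the count was 6, with *Tubb3* (-0.63), *Tubb2b* (-0.26) and *Crmp1* (-0.70) also lower, and without KO 2 it was 5, with *Map2* (0.96) and *Map1b* (0.43) also higher.

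The neural progenitor markers ranged widely in level. Of 17, 11 were tested, 2 were higher, 2 lower and 7 not called (median 0.08), a called share near the 41.1% of all tested genes. *Sox1*, an early neural plate gene, rose from 0.08, 0.1 and 0.08 to 0.47 and 0.67 FPKM (1.83, limma's adjusted p = 0.0015), and *Msi1*, an RNA-binding protein gene, from 11.46, 11.61 and 13.16 to 19.04 and 19.21 FPKM (0.66, 0.0011). *Neurog1* (-1.83, 0.001) and *Nes* (-1.0, 0.0017) were lower. The levels of *Neurog1* were low in both genotypes, at 0.35, 0.4 and 0.34 FPKM in WT and at 0.03 in both KO libraries. *Olig2*, at 9.91, 7.1 and 7.72 FPKM in WT and at 7.68 and 6.99 in KO, was not called (-0.15, 0.42), nor was *Pax6* (0.08, 0.83). *Fabp7* was at 0 in all libraries, and *Neurog2*, *Hes5*, *Pax3* and *Zic1* were at 0.04 FPKM or less. Summed over the list, to which *Sox2* gave 78.24 to 85.17 FPKM, the level was 107.0 to 111.0 FPKM in WT and 109.0 and 115.0 in KO.

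The label of ES cells was checked against *Pou5f1* (159.01 to 209.55 FPKM), *Nanog* and *Sox2*, which stood at high levels in all 5 libraries. *Nanog* (181.4 to 203.97 FPKM) and *Zfp42* (25.68 to 27.5) were not called, and *Pou5f1* was higher in KO (0.27, limma's adjusted p = 0.013). With chromosome medians subtracted *Nanog* was called lower (-0.27, limma's adjusted p = 0.0025). The counts that follow stand beside 18.8% of all tested genes called higher and 22.3% lower. Of 14 naive markers 7 were higher and 4 lower, with *Tfcp2l1* (0.60) and *Klf4* (0.74) among the former and *Dppa3* (-2.30) among the latter. Of 10 primed markers 1 was higher, *Fgf5* (1.57), and 4 were lower, among them *Lef1* (-1.83). *Fgf5* was low throughout, at 0.06, 0.09 and 0.05 FPKM in WT and at 0.44 and 0.35 in KO.
Of 12 mesoderm and endoderm markers 8 were tested and 3 higher, *Eomes* (2.00), *Sox7* (1.82) and *T* (1.02), and their summed level was 2.81 to 3.2 FPKM in WT and 6.27 and 5.36 in KO. Of 8 trophoblast markers 5 were tested, with *Eomes* higher and *Tfap2c* lower, and sums of 16.3 to 18.4 and of 16.2 and 14.5 FPKM, to which *Tfap2c* alone gave 15.12 to 17.12 and 13.21 and 11.09. Fibroblast markers summed to at most 0.94 FPKM in any library, with *Col3a1*, *Dcn* and *Lum* at 0 in all 5, and the 2 tested were not called, *Pdgfrb* (0.45, limma's adjusted p = 0.15) and *Thy1* (-0.41, 0.26). The part of these markers in the levels of the neurofilament genes was not tested.

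**Figure D5:**
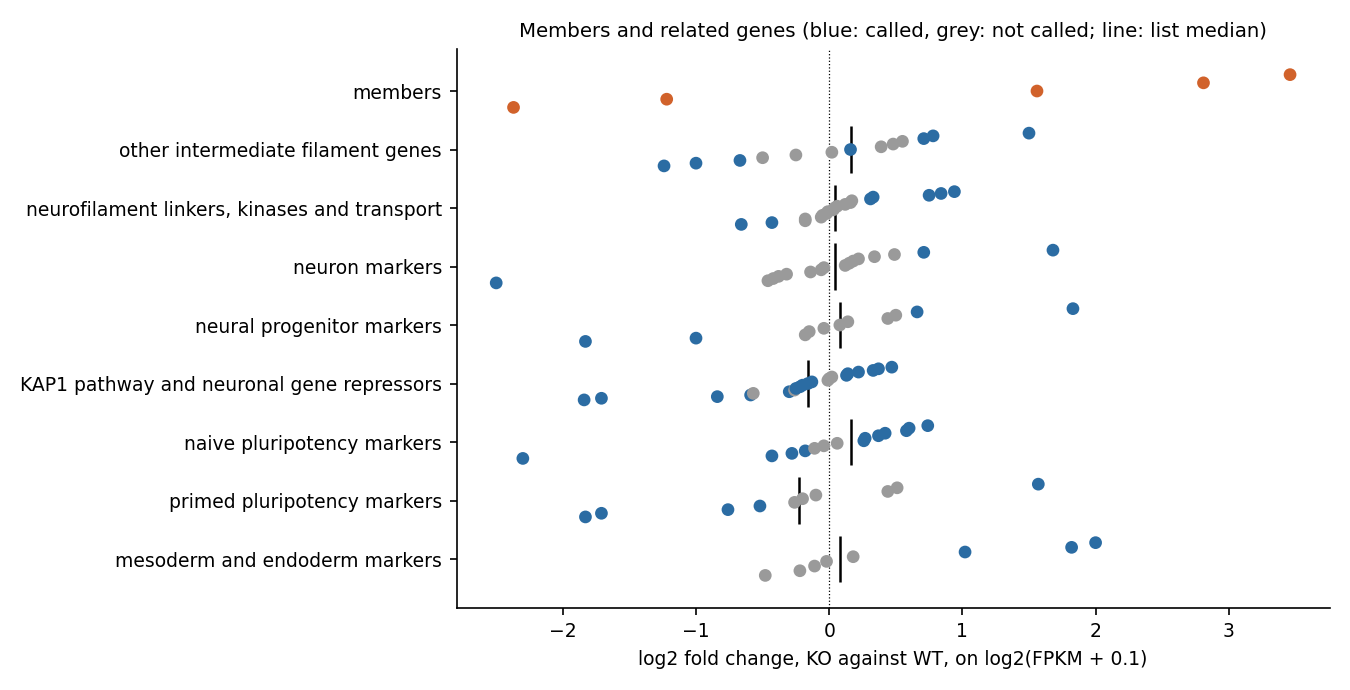
Log2 fold change (KO against WT) of the members and of each tested gene in 8 lists (trophoblast and fibroblast markers are not drawn), with the list median as a line and called genes in blue. The members, chosen on this contrast, run from -2.37 to 3.46 and the single genes of the lists from -2.5 (*Elavl3*) to 2.0 (*Eomes*).

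The machinery that ZFP57 acts through was measured along with the repressors of neuronal genes. Of 21 such genes, all tested, 6 were higher, 10 lower and 5 not called (median -0.16), beside 18.8% and 22.3% of all tested genes. The 10 lower take in *Zfp57* itself, the gene disrupted in KO. *Trim28*, encoding KAP1, was at 157.22, 155.37 and 159.62 FPKM in WT and at 142.44 and 140.2 in KO (-0.16, limma's adjusted p = 0.014), and *Setdb1*, the H3K9 methyltransferase it recruits, was not called (-0.01, 0.82). *Rest*, the repressor of neuronal genes outside neurons, fell little (-0.13, 0.023). Of its co-repressors *Rcor2* fell more (-0.84, 0.00034), whereas *Rcor1* was not called (0.02, 0.86).
Beside *Zfp57* (-1.84), *Dnmt3a*, a de novo DNA methyltransferase, fell most of the list, from 10.42, 9.21 and 10.99 to 3.25 and 2.84 FPKM (-1.71, 0.00033). *Dnmt3b*, another de novo enzyme, was not called (-0.26, 0.14), nor was *Dnmt3l* (-0.57, 0.2). *Dnmt1* (0.13, 0.035) and its partner *Uhrf1* (0.22, 0.0064), which maintain methylation, were slightly higher. Of the HP1 genes *Cbx1* (-0.59) was lower and *Cbx3* (0.37) and *Cbx5* (0.47) were higher. *Cbx1* lies on chromosome 11 and was no longer called by limma with chromosome medians subtracted (-0.11, adjusted p = 0.11). The co-repressor gene *Sin3a* (-0.30) was lower and the methyltransferase gene *Ehmt2* (0.33) higher. *Zfp445*, the other zinc finger gene acting at imprints, was at 15.35, 14.91 and 15.94 and at 15.67 and 15.21 FPKM (0.00, 0.95).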

How the data were processed

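RNA-seq (paired reads of 150 bases) covered 3 WT and 2 ZFP57 KO samples, and ZFP57 ChIP-seq used reads of 100 bases. Per the labels, the authors mapped all data to mm10 and deposited gene levels as FPKM, rounded to 2 decimals, and peaks as positions without a score. Their processing notes name STAR 2.5.2, BWA 0.6.2, MACS2 2.1.0 and Trim Galore 0.2.7. The annotation, the counter and its strand setting are not given in the sources used here, and the peaks of the C57BL/6J list were called in at least 2 WT replicates. How the hybrid list was made is likewise not given.

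Genes were placed with RefSeq models of GRCm38, 23192 by symbol and 1096 by a synonym, and 121 had no single match. Peak starts were counted from 1, and windows were 20 kb. The 14612 genes averaging 0.1 FPKM or more were fitted with limma 3.58.1 in R 4.3.3 (eBayes with trend) on log2(FPKM + 0.1), and called at 0.05 after adjustment by Benjamini and Hochberg. The fit was tested on simulated data. The labels number the ES cell samples of each genotype and do not say how the cultures were related, so p-values measure the spread between these samples. With 10 splits of 3 against 2, an exact permutation test cannot go below p = 0.1. Fragment numbers were inferred from microRNA and snoRNA genes, of which 91 to 94.5% of low values fell within 0.1 fragments of a whole number, and from RefSeq transcript lengths, which may differ from those of the authors. They cover counting error only, and the depth of ChIP-seq is unknown.

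The members and lists were chosen with earlier results of these data known. Named were the members, up to 8 called genes of each list, list genes that were not called (given with values), tested genes within 1 Mb of *Nefm*, the genes next to it in rank and the 5 genes most like it. *Trim28*, *Rest*, *Dnmt1*, *Uhrf1*, the genes beyond 1 Mb and those near other evenly spaced peaks fall outside this rule and were chosen after their values were seen, as was the rule of a log2 fold change of at least 1. Alternatives covered pseudocounts, filters, scaling, chromosome medians, the variance trend, single libraries, a replicate block and windows. Proteins, KAP1, H3K9me3 and the hybrid libraries were not analysed here. Some members of the gene lists are not reported here by name. Software also included Python 3.11.15, pandas 2.3.3 and matplotlib 3.10.9.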

Additional observations from a re-analysis of the deposited data

How the results depend on the processing

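No member changed direction under any alternative run. A pseudocount of 1 gave log2 fold changes of 2.77 for *Nefm*, -1.78 for *Nefh* and 1.32 for *A230070E04Rik*, and a pseudocount of 0.01 gave 3.28 for the last. Chromosome medians moved *Nefh* to -1.89. Without single libraries, *Nefm* lay between 3.22 and 3.72, *Nefl* between 1.38 and 1.74, *Nefh* between -2.42 and -2.32, *A230070E04Rik* between 2.64 and 3.03, and *Ina* between -1.71 (without KO 1) and -0.74 (without KO 2). *A230070E04Rik* was not tested under the filter at a mean of 1 FPKM.

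Of all tested genes 6002 were called, and between 4095 and 4775 with a library left out. Neuron markers then gave 3 to 6 calls, and genes within 1 Mb of *Nefm* 0 to 1. A window of 2 Mb gave 5. The filter at 1 FPKM left 2 calls of 4 among neural progenitor markers, through fewer genes tested. A log2 fold change of at least 1, chosen after seeing the data, left 1172 of all genes, 2 of 7 intermediate filament genes, 0 of 7 linkers, 2 of 4 neural progenitor markers, 2 of 16 repressors and 7 of 20 cell state markers. *Nes*, at -1.0 after rounding, fell just short of this size in both lists that hold it. The 2 repressors left were *Dnmt3a* and *Zfp57*, the gene disrupted in KO.

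The labels give no sign that samples of the same number were paired, and deviations of WT 1 with KO 1 correlated at -0.0681 and those of WT 2 with KO 2 at -0.0357. A replicate block gave 3012 calls over all genes, 2 among intermediate filament genes, 8 among repressors and 11 among cell state markers. Low WT levels of *A230070E04Rik*, at roughly 13 to 32 fragments, limit the precision of its fold change.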
